A study of Homo sapiens with 4 samples.

Results

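The transcription factors that set squamous identity were measured in TE-1 cells, an established line of esophageal squamous cell carcinoma, after silencing of *FOXM1*. They were chosen as a list of 10 genes, each to be read from the brightest probe set that carries its symbol alone. Of the 10 genes, 8 were measured in this way, out of 14232 genes on the arrays. These were *KLF4*, *KLF5*, *PITX1*, *OVOL1*, *ZNF750*, *GRHL1*, *GRHL2* and *GRHL3*, with 1 probe set each. *TP63* is not analysed here, and the only probe set with the symbol *SOX2* also carries *SOX2-OT*, the long noncoding transcript that spans it, so no value is given for it.

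The stratified squamous epithelium of the esophagus renews itself from a basal layer of dividing cells, whose daughters stop dividing and differentiate as they move upward. p63, encoded by *TP63*, and SOX2 define the basal squamous state, and KLF5 is found in the dividing basal cells. KLF4, OVOL1 and ZNF750 act in the suprabasal cells, where they restrain division and turn on differentiation genes, and the grainyhead-like factors, encoded by the *GRHL* genes, maintain cell junctions and the epithelial barrier. FOXM1 is a forkhead factor that drives genes needed for cell division.

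Labelled cDNA made from total RNA was hybridized to 4 Affymetrix arrays in 2 groups of 2 replicates. TE-1-siFOXM1 cells received an siRNA against *FOXM1* and TE-1-SCR cells a scrambled siRNA, in both cases with a lipid reagent in repeated transfections a day apart, and RNA was taken a day after the last of them. All 4 arrays therefore come from transfected cells of a single line. Whether both replicates of a group were grown and transfected separately is not stated, and p-values may therefore reflect technical spread alone. Values are the deposited log2 expression after robust multi-array average (RMA) normalization. Array medians lay between 7.54 and 7.63, and pairs of arrays correlated across probe sets with r between 0.984 and 0.992. *FOXM1* itself had log2 values of 8.28 and 8.06 in TE-1-siFOXM1 cells and 10.55 and 9.75 in TE-1-SCR cells, with means of 8.17 ± 0.16 in TE-1-siFOXM1 and 10.15 ± 0.56 in TE-1-SCR cells (SD, n = 2 each). It was 3.95-fold lower after silencing, with no overlap (difference -1.98, limma adjusted p = 1, unadjusted p = 0.00126). In such bulk RNA, fewer cells with a transcript and less transcript per cell cannot be told apart.

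After silencing, none of the 8 squamous factors differed by 1.5-fold or more from its level in TE-1-SCR cells. Over all genes, 0.562% passed this criterion as higher and 0.450% as lower in TE-1-siFOXM1 cells, and at these rates a list of 8 genes would rarely hold any. The largest difference was that of *GRHL2*, 1.15-fold lower, and 79.8% of all genes had a smaller difference than this. The 5 factors other than the grainyhead genes had higher means in TE-1-siFOXM1 cells, with overlapping values, while the 3 grainyhead genes had lower means and no overlap. The median log2 difference of the 8 genes was 0.06, against 0.003 over all genes, and it lay between -0.08 and 0.002 when single arrays were left out. None passed limma (adjusted p = 1 for each, with unadjusted p between 0.238 and 0.807), and the same fit called 0.00% of all probe sets at an adjusted p of 0.05, *FOXM1* included, while 3.09% had an unadjusted p under 0.05. With 2 arrays against 2, an exact permutation test cannot give a two-sided p below 0.333.

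**Figure D1:**
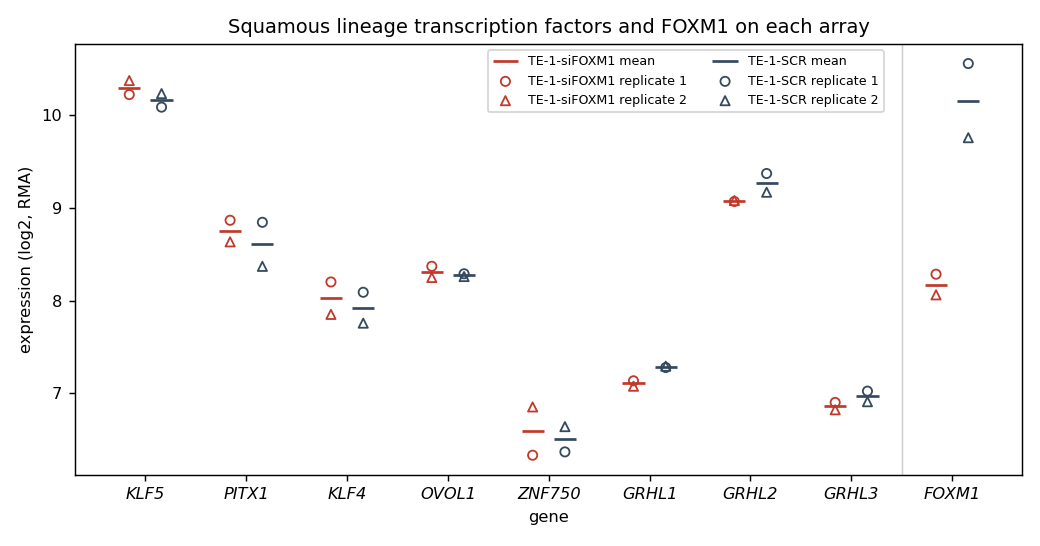
Log2 expression of the 8 squamous factors and of FOXM1 on each array, with TE-1-siFOXM1 in red at the left of each pair and TE-1-SCR in dark blue at the right; circles are replicates 1, triangles replicates 2 and bars the group means. The groups are separate for the *GRHL* genes, at differences of at most 0.20, whereas FOXM1 is lower by 1.98.

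Promoter windows from RefSeq (build GRCh38.p14) were read for *KLF4*, *KLF5*, *PITX1*, *GRHL1* and *GRHL3*, that is 5 of the 8 genes, with 7 windows in all, each of the 250 bases before an annotated start. *GRHL2*, *OVOL1* and *ZNF750* are not among them, and the motif counts do not cover these genes. The windows of *GRHL1* and *GRHL3* are shown because their groups were separate, and that of *KLF4* for contrast; capitals mark the letters CCAAT or TATAA on either strand. They lie at chr2:9951443-9951692 (plus strand), chr1:24319107-24319356 (plus strand) and chr9:107489770-107490019 (minus strand).
GRHL1: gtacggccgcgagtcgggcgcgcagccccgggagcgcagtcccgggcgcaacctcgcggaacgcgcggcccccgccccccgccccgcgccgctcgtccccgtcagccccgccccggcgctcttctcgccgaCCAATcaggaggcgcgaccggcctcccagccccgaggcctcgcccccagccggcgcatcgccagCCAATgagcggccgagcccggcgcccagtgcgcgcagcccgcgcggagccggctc
GRHL3: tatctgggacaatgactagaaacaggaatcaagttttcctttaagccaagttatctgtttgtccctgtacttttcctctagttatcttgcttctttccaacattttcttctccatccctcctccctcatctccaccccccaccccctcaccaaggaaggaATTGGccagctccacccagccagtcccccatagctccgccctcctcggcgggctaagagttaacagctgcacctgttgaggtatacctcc
KLF4: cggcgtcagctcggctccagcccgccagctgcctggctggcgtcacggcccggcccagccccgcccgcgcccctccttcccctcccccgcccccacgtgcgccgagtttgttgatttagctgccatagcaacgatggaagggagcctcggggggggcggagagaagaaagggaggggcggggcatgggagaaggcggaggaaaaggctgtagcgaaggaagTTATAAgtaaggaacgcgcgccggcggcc

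The letters TAAACA, a form of the core of the forkhead motif, were in none of the 7 windows on either strand, against 3860 of all 35116 RefSeq windows of this length. TTTGAA, a form of the cell cycle homology region through which FOXM1 reaches mitotic genes with the MuvB complex, was in none either (13.3% of all windows), and the same held for AACCGGTT, the grainyhead motif (0.117% of all). CCAAT, the box that the factor NF-Y binds, was in 3 of the 7 windows (32.0% of all). In *GRHL1* it occurred at 119 and 55 bases before the start, in *GRHL3* at 90 bases before 1 of its 2 starts, and in *KLF4* it was not found. *KLF4* had TATAA, which the basal transcription machinery binds near many start sites, on both strands in overlapping copies that begin 29 and 28 bases before the start, and 1 window of *KLF5* had it 194 bases before its start (18.9% of all windows had it). No other motif overlapped another in these windows. The *GRHL1* window was 81.6% G and C, that of *KLF4* 69.2% and that of *GRHL3* 50.8%, against a median of 58.0% over all windows. The authors give the forkhead motif as RYAAAYA (R is A or G, Y is C or T), and its forms without TAAACA were not counted. The *GRHL3* window shown holds such a form, TGTTTGT, which reads ACAAACA on the other strand. A match of letters does not show a site, and its absence from 250 bases says nothing of sites elsewhere.

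*KLF5*, a Krüppel-like zinc finger factor of dividing epithelial cells, had log2 values of 10.22 and 10.37 in TE-1-siFOXM1 cells and 10.08 and 10.23 in TE-1-SCR cells. The ranges of the groups overlapped, and both groups varied by about as much as they differed. The means were 10.29 ± 0.11 in TE-1-siFOXM1 and 10.16 ± 0.10 in TE-1-SCR cells (SD, n = 2 each), a difference of 0.14 (standard error 0.15) with a 95% interval from -0.25 to 0.52. It was 0.0622 when siFOXM1 replicate 2 was left out and 0.213 when siFOXM1 replicate 1 was. Its probe set was the brightest of the 8, at percentile 88.9 of all probe sets by its mean. Brightness also depends on the probes, so such percentiles do not order genes by their amount of transcript.

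*PITX1*, a homeodomain factor best known for hindlimb identity and expressed in oral and esophageal epithelium, had values of 8.86 and 8.63 in TE-1-siFOXM1 cells and 8.84 and 8.37 in TE-1-SCR cells. The TE-1-SCR replicates were 0.47 apart, more than 3 times the difference between the group means. That difference was 0.14 (standard error 0.21, 95% interval from -0.41 to 0.70), and it turned to -0.09 when SCR replicate 2 was left out.

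Among the factors of suprabasal differentiation, *KLF4* had values of 8.20 and 7.85 in TE-1-siFOXM1 cells and 8.09 and 7.76 in TE-1-SCR cells. KLF4 is a Krüppel-like relative of KLF5 that is needed for the epidermal barrier. Replicates within a group were 0.35 apart in TE-1-siFOXM1 and 0.33 apart in TE-1-SCR cells, against a difference of 0.10 between the means (standard error 0.20, 95% interval from -0.42 to 0.63). The sign of this difference was not stable to leaving out an array, at -0.07 without siFOXM1 replicate 1 and -0.06 without SCR replicate 2. Between same-numbered arrays the difference was 0.11 in replicate 1 and 0.09 in replicate 2, but what a number shares is not stated.

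*OVOL1*, a zinc finger repressor that acts in cells leaving the cell cycle, had the smallest difference of the 8. Its values were 8.37 and 8.25 in TE-1-siFOXM1 cells and 8.29 and 8.26 in TE-1-SCR cells, a difference of 0.04 (standard error 0.14, 95% interval from -0.32 to 0.39). The ends of this interval stand for a 1.31-fold higher and a 1.25-fold lower level after silencing. Without siFOXM1 replicate 1 the difference was -0.02.

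*ZNF750*, a zinc finger factor that p63 induces and that works with KLF4 in terminal differentiation, was the dimmest member, at percentile 33.2. It had values of 6.33 and 6.85 in TE-1-siFOXM1 cells and 6.37 and 6.64 in TE-1-SCR cells. The TE-1-SCR values lay inside the range of the TE-1-siFOXM1 values, and the difference of 0.09 had the largest standard error of the 8 (0.23, 95% interval from -0.51 to 0.68). It was -0.17 when siFOXM1 replicate 2 was left out and -0.05 when SCR replicate 1 was.

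The grainyhead genes were the members whose groups did not overlap, all of them lower in TE-1-siFOXM1 cells, so that 3 of 8 members were lower with no overlap and 0 were higher with no overlap. Over all genes these shares were 13.8% and 13.5%. *GRHL1*, which is known to control the desmosomal cadherin gene *DSG1*, had values of 7.14 and 7.08 in TE-1-siFOXM1 cells and 7.28 and 7.29 in TE-1-SCR cells. Its probe set was below the median brightness, at percentile 43.5 by its mean. The replicates of each group were closer to each other than the groups were, which held for no other member: in 7 of the 8 genes the spread within a group exceeded the difference between groups, as it did in 82.7% of all genes. The means were 7.11 ± 0.04 in TE-1-siFOXM1 and 7.29 ± 0.01 in TE-1-SCR cells (SD, n = 2 each), a difference of -0.18 (standard error 0.13, limma adjusted p = 1, unadjusted p = 0.238) or 1.13-fold.

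*GRHL2*, the factor that maintains expression of the E-cadherin gene *CDH1* in many epithelia, had values of 9.07 and 9.08 in TE-1-siFOXM1 cells and 9.37 and 9.17 in TE-1-SCR cells. Its difference of -0.20 (standard error 0.15, unadjusted p = 0.242) depended on the high SCR replicate 1, without which it was -0.09. *GRHL3*, which is required for the epidermal barrier and for closure of the neural tube, had values of 6.90 and 6.82 in TE-1-siFOXM1 cells and 7.02 and 6.91 in TE-1-SCR cells, a difference of -0.10 (standard error 0.14). The gap between the groups was narrow, 6.90 against 6.91 at its nearest, and the difference was -0.05 without SCR replicate 1. The *GRHL3* probe set was also below the median brightness, at percentile 38.7 by its mean. The median of the 3 genes was -0.18, and it stayed between -0.19 and -0.09 when single arrays were left out. None of these differences passed the test, and the 3 genes were grouped by family name after their values had been seen.

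**Figure D2:**
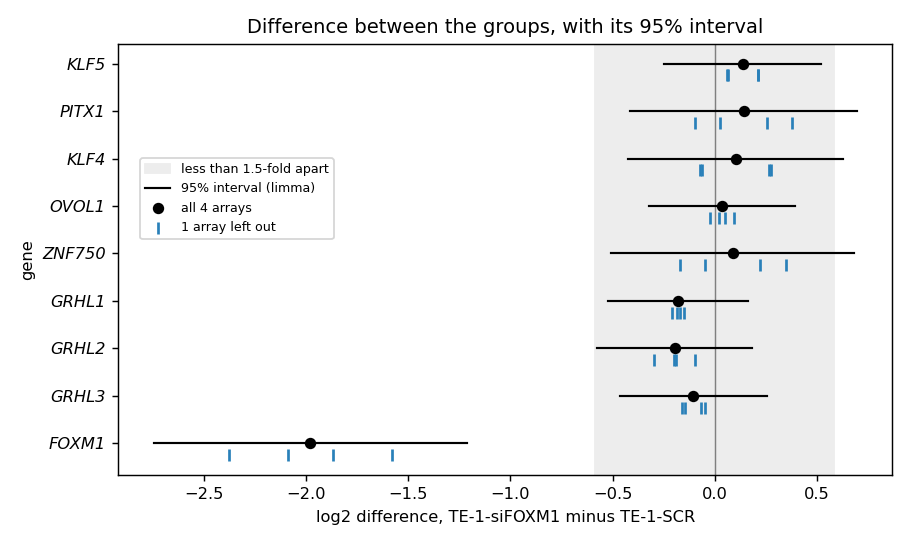
Log2 difference (TE-1-siFOXM1 minus TE-1-SCR) for each gene, with black points for all 4 arrays, black lines for the 95% interval from limma and blue ticks for the difference with 1 array left out; the gray band marks differences below 1.5-fold. All 8 squamous factors lie inside the band and their intervals include 0, whereas FOXM1 lies at -1.98.

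The 95% intervals give a range for each difference and rest on the same spread as the p-values. Where that spread is technical alone, they may be too narrow to bound a difference that these arrays missed. For *KLF5*, *OVOL1*, *GRHL1*, *GRHL2* and *GRHL3* the interval lay within 1.5-fold in either direction, that is for 5 of the 8 genes, against 60.9% of all genes. For *PITX1*, *ZNF750* and *KLF4* the upper end reached a 1.62-fold, 1.61-fold and 1.55-fold higher level in TE-1-siFOXM1 cells. The intervals widened when an array was left out, after which at most 2 of the 8 stayed within 1.5-fold.

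Relatives of the squamous factors were read beside them. Of 15 other Krüppel-like genes, 14 were measured and none was 1.5-fold apart (median 0.07). The largest difference was that of *KLF6*, a broadly expressed factor, with values of 10.40 and 10.03 in TE-1-siFOXM1 cells and 9.78 and 9.70 in TE-1-SCR cells. The groups did not overlap, and the difference of 0.47 (1.39-fold, limma adjusted p = 1, unadjusted p = 0.0477) was 0.29 without siFOXM1 replicate 1. *KLF16* followed with 0.20 (0.06 without siFOXM1 replicate 1), and *KLF15* (-0.21, or -0.12 without SCR replicate 2) and *KLF14* (-0.14, or -0.03 without SCR replicate 1) were the lowest. Of 19 other *SOX* genes 18 were measured, with a median of -0.002. *SOX9*, a factor of progenitor cells and cartilage, had a difference of 0.27 and *SOX12* one of 0.22, while *SOX14* (-0.30) and *SOX17*, a factor of endoderm (-0.28), were the lowest. The groups were separate in these 4, and of all 18 *SOX* genes 4 were higher and 3 lower with no overlap, against 13.5% and 13.8% of all genes. *SOX12* was at 0.11 without SCR replicate 2. Among the 6 measured genes of the p53, CP2, PITX and OVOL families, *TFCP2* (0.19) and *PITX3* (0.14) were the highest and *TP73*, the sister gene of *TP63* (-0.12), and *UBP1* (-0.02) the lowest. Leaving out siFOXM1 replicate 1 moved *TP73* to -0.05, and leaving out siFOXM1 replicate 2 moved *PITX3* to 0.03.

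Of 25 other transcription factors of stratified epithelium 21 were measured, with *OVOL2* and *TP73* of the relatives above again among them. None was 1.5-fold apart, and the median was -0.02. *BNC1*, encoding the basal cell zinc finger factor basonuclin, had values of 8.52 and 8.67 in TE-1-siFOXM1 cells and 8.16 and 8.20 in TE-1-SCR cells. Both TE-1-siFOXM1 values lay above both TE-1-SCR values, with a difference of 0.41 (standard error 0.14, limma adjusted p = 1, unadjusted p = 0.0332) that stayed between 0.34 and 0.49 when single arrays were left out. *BNC1* and *KLF6* were the only genes of these lists with an unadjusted limma p under 0.05, against 261 of all 14232 genes. *FOXN1*, a factor of differentiating keratinocytes, had a difference of 0.24 (0.11 without SCR replicate 1), and *PRDM1* (-0.27) and *DLX5* (-0.27) were the lowest. *PRDM1* was at -0.002 without SCR replicate 1, and *DLX5* at -0.05 without siFOXM1 replicate 2. None of 9 measured factors of columnar gut epithelium was 1.5-fold apart either (median 0.03), with *CDX2* (0.24) and *PDX1* (0.22) the highest and *FOXA3* (-0.17) and *HNF4G* (-0.14) the lowest. Leaving out SCR replicate 1 moved *PDX1* to 0.03 and *HNF4G* to -0.05.

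Genes downstream of the squamous factors were also read. Of 15 measured basal genes, many of them targets of p63, none was 1.5-fold apart, and the median was 0.004. With no overlap, 5 of these 15 genes were higher and 1 was lower, against 13.5% and 13.8% of all genes. *PERP*, a desmosomal p63 target, had a difference of 0.42 (0.13 without SCR replicate 1) and *DSG3*, a desmosomal cadherin, one of 0.39 (0.23 without siFOXM1 replicate 1). Both were without overlap, with unadjusted limma p of 0.133 for *PERP* and 0.0811 for *DSG3*. *FRAS1* (-0.08, or -0.05 without SCR replicate 1) and *FAT2* (-0.08) were the lowest. Of 15 measured differentiation genes none was 1.5-fold apart (median 0.03). *CRNN*, encoding cornulin of the upper esophageal layers, had values of 6.82 and 6.90 in TE-1-siFOXM1 cells and 7.28 and 7.09 in TE-1-SCR cells, a difference of -0.33 without overlap. *LORICRIN*, of the cornified envelope, had a difference of -0.17 (-0.09 without SCR replicate 1), and *EMP1* (0.23) and *IVL*, encoding involucrin (0.11), were the highest.

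The 8 known grainyhead targets were all measured, and none was 1.5-fold apart (median -0.02). *CDH1* had values of 11.04 and 11.02 in TE-1-siFOXM1 cells and 10.94 and 10.88 in TE-1-SCR cells. It was thus higher by 0.12 with no overlap, whereas *GRHL2* was lower. *DSG1* had a difference of 0.11 on a dim probe set (percentile 7.91; 0.04 without SCR replicate 2), *ERBB3* one of -0.18 and *ARHGEF19*, a target of GRHL3, one of -0.13. Of 8 measured mesenchymal genes, which OVOL and grainyhead factors oppose, none was 1.5-fold apart (median 0.005), with *ZEB1* (0.18) and *SNAI2* (0.14) the highest and *TWIST1* (-0.19) and *CDH2* (-0.11) the lowest. Without SCR replicate 1, *ZEB1* was at 0.08, *SNAI2* at 0.02 and *TWIST1* at -0.07.

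**Figure D3:**
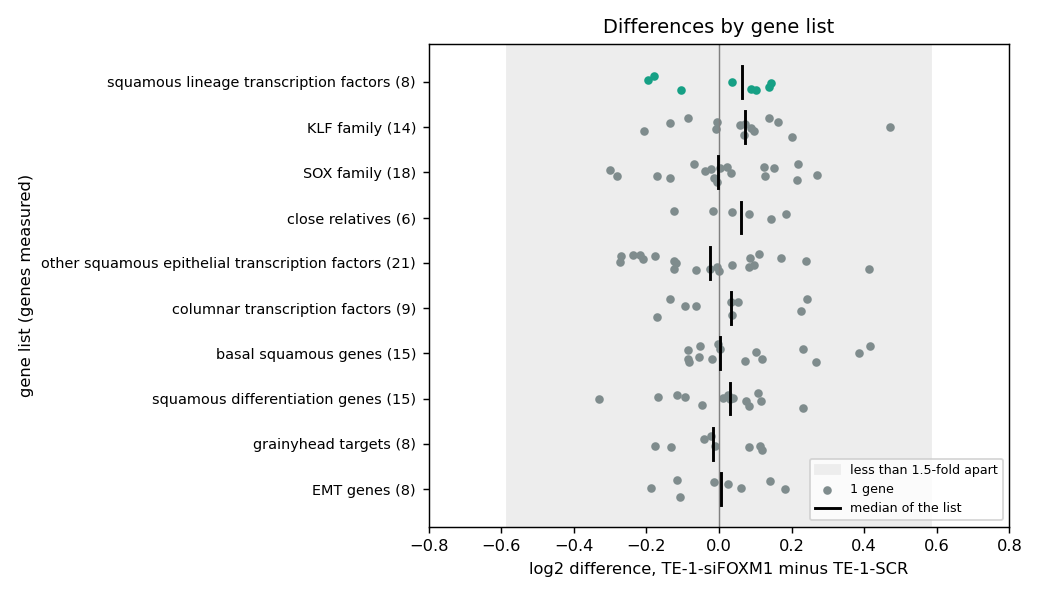
Log2 differences (TE-1-siFOXM1 minus TE-1-SCR) by gene list, with the 8 squamous factors in green in the top row, each point 1 gene and each black bar the median of a list; the gray band marks differences below 1.5-fold. No gene of these lists leaves the band, and KLF6 (0.47) lies farthest from 0.

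The squamous label of the line was set against its markers. Of 13 squamous epithelial markers 9 were measured, without *KRT5*, *KRT6A*, *KRT17* and *LAMB3*. Of the 9 measured, 8 were above the median brightness of all probe sets. *CDH1* (percentile 93.6), *CDH3* (96.2), *EPCAM* (96.3) and *SFN* (98.0) were bright, of which *CDH1* and *EPCAM* mark epithelial cells in general, whereas *KRT14* was at percentile 56.6 and *DSC3* at 22.6. Of the 9 columnar factors 4 were above the median brightness, namely *GATA6* (percentile 84.5), *FOXA1* (73.0), *GATA4* (65.2) and *CDX2* (54.0). Between the groups *DSG3* (0.39) and *KRT14* (0.27) had the largest positive differences and *PKP1* (-0.18) and *SFN* (-0.08) the lowest. *KRT14* was at 0.16 without SCR replicate 2 and *PKP1* at -0.05 without SCR replicate 1. Differentiation genes were dim, with 3 of 15 above the median brightness, *IVL* at percentile 18.2 and *SCEL* at 3.46. The mesenchymal genes *SNAI2* (percentile 98.1) and *VIM* (95.7) were bright. Of 16 markers of fibroblasts, endothelial and immune cells, 2 were above the median brightness, namely *COL1A1* (percentile 53.7) and *CD68*, a lysosomal protein of many cell types (94.6), while *PTPRC* was at percentile 3.88 and *LUM* at 1.64. Their summed level was 11.82 and 11.84 on the log2 scale in TE-1-siFOXM1 cells and 11.75 and 11.72 in TE-1-SCR cells. Most of this sum was *CD68*, with log2 values of 11.30 and 11.23 in TE-1-siFOXM1 cells and 11.10 and 11.08 in TE-1-SCR cells. The highest differences were those of *DCN* (0.31) and *CD68* (0.17). *MS4A1* (-0.40) and *CD3D* (-0.23, or -0.07 without siFOXM1 replicate 1) had the lowest. Whether this bears on the squamous factors was not tested.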

How the data were processed

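Labels and the methods gave 4 arrays in 2 groups. The authors normalized the arrays by RMA in Affymetrix Expression Console and deposited log2 values, 1 per probe set, covering 22011 probe sets. Build hg18 is named in the submitters' processing notes, without tool versions or the set of arrays normalized jointly. All 4 columns were used. The platform annotation gave 1 symbol to 14432 probe sets, several to 2408 and none to 5171; 14208 of the 14232 genes matched current RefSeq symbols. For arrays, the number of replicates limits precision.

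The difference was the TE-1-siFOXM1 mean minus the TE-1-SCR mean. All probe sets entered a limma fit (version 3.58.1, R 4.3.3; 4.87 degrees of freedom) with Benjamini-Hochberg adjustment over all, and the 1.5-fold criterion of the methods was applied. The code was tested on simulated arrays. The members and lists were chosen with earlier results of these data known. Named genes are *FOXM1*, the members, and in each list the 2 highest and 2 lowest differences, plus, among relatives and other squamous factors, genes 1.5-fold apart or in the brightest 10% on all arrays, of which there were none; marker genes named for brightness, and *VIM*, *SCEL*, *PTPRC*, *LUM* and *ELF3*, were picked with their values known. Alternatives were the replicate number as a block, other normalizations and moderation, a filter on dim probe sets, each array left out, averaging the probe sets of a gene, linear means and a 2-fold criterion.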

Additional observations from a re-analysis of the deposited data

How the results depend on the processing

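No member was 1.5-fold apart and limma gave no probe set an adjusted p under 0.05, in any alternative run. The differences of the 8 members kept their direction in all 53 values from settings that keep every array, and 6 of 32 reversed when an array was left out. Most of the 53 could not have changed direction. The replicate block, the other moderation, the filter and the averaging of probe sets leave a member's difference as it was, with 1 probe set each. Only the other normalizations and the linear means could change it. Over single left-out arrays, differences ranged from -0.0720 to 0.277 for *KLF4*, -0.0945 to 0.380 for *PITX1*, -0.0249 to 0.0957 for *OVOL1* and -0.17 to 0.35 for *ZNF750*, and the median of the members from -0.08 to 0.002. The ranges were -0.0207 to 0.39 for *TFCP2*, -0.0760 to 0.0422 for *UBP1*, -0.0546 to 0.54 for *CDX2*, -0.44 to 0.0921 for *FOXA3*, -0.22 to 0.0486 for *FAT2*, -0.0328 to 0.26 for *IVL*, -0.18 to 0.64 for *EMP1*, -0.44 to 0.0851 for *ERBB3*, -0.37 to 0.10 for *ARHGEF19*, -0.32 to 0.0878 for *CDH2*, -0.32 to 0.15 for *SFN* and -0.81 to 0.000315 for *MS4A1*. Of the other list genes, 5 passed 1.5-fold with an array left out: *KLF6* (0.65), *EMP1* (0.64) and *MS4A1* (-0.81) without siFOXM1 replicate 2, *MS4A1* also without SCR replicate 1 (-0.60), and *PERP* (0.70) and *ELF3* (-0.66) without SCR replicate 2.

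With the replicate block, 8 members had an interval within 1.5-fold, against 5 without it. Deviations of same-numbered arrays correlated with r = 0.336, and the labels do not say what a number shares. In replicates 1 and 2, the differences between same-numbered arrays were 0.11 and 0.09 for *KLF4* and 0.135 and 0.140 for *KLF5*. They were 0.02 and 0.26 for *PITX1*, 0.08 and -0.01 for *OVOL1* and -0.04 and 0.21 for *ZNF750*. Those of *GRHL1* were -0.14 and -0.22, of *GRHL2* -0.30 and -0.09 and of *GRHL3* -0.12 and -0.09. The number was 3 in the brighter part of the probe sets (median level or more), where 3 members are not tested, and 0 to 2 with an array left out, which leaves fewer samples. This count and the median of the *GRHL* genes were added after the data were seen. Genes at least 1.5-fold higher numbered 113 to 232 and lower 74 to 258 with an array left out, against 80 and 64. They numbered 23 and 27 in the brighter part, and 7 and 8 at 2-fold.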
